A study of Mus musculus with 9 samples.

Results

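Sertoli cell genes were examined as a group of 9 genes (Sox9, Wt1, Gata4, Cldn11, Fshr, Inhbb, Clu, Dhh and Amhr2) in testis RNA of Prm2-deficient mice. They were taken by symbol from the 38685 genes and loci of the deposited table, where each of the 9 symbols was found. Of the 14893 genes with enough counts for a test, 8 were of this group, and Fshr was not. The libraries came from C57BL/6 males, 3 wildtype (Prm2+/+), 3 heterozygous (Prm2+/-) and 3 Prm2-deficient (Prm2-/-), whose age the labels do not give. Prm2-deficient mice were made by CRISPR/Cas9 editing of oocytes and carry the change in every cell, although Prm2 is used in spermatids and not in Sertoli cells. RNA was isolated from whole testis without its outer capsule and sequenced with QuantSeq, which reads polyadenylated transcripts close to their 3′ end.

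Sertoli cells are the somatic cells of the seminiferous tubule. They enclose the germ cells, form the blood-testis barrier and answer to follicle-stimulating hormone and testosterone. Their identity in the male gonad depends on SOX9 and on WT1 and GATA4, and they signal to their neighbours through inhibin, desert hedgehog and anti-Müllerian hormone. In whole testis RNA, fewer Sertoli cells and less RNA per Sertoli cell cannot be told apart.

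Values are normalized counts, the recovered counts divided by 1 size factor per library. Recovered counts summed to between 3629929 and 4490411 per library, and 3 counts, the limit that a count of 0 allows, equal 2.65 to 3.31 normalized counts per library, for counting error only. The authors' counts were estimated from coverage, so that 1 recovered count need not be 1 sequenced read, and counting errors and this limit hold only on the scale of the recovered counts. Levels were compared between libraries and not between genes. Prm2 itself stood between 29716 and 42766 in all libraries, with 34660 to 42766 in those labelled Prm2-/-, so its transcript does not check the labels. Replicate 3 of Prm2+/+ stood apart with 19028 genes and loci detected, against 19873 to 20526 in the other libraries, and values without it are given where they matter. The labels give strain, tissue, sex and genotype but do not say how the males of a genotype were related or processed, so p-values measure the spread between these libraries.

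Of the 9 genes, 5 had a promoter in the RefSeq table (GRCm38.p6), each given as 250 bases before and 50 after the annotated start. Fshr, Amhr2 and Dhh are shown because Fshr gave no counts, Amhr2 stood at separate levels in different libraries, and Dhh was lower in every Prm2+/- and Prm2-/- library than in Prm2+/+. Capitals mark an E-box with the letters CACGTG in the window of Fshr. In the window of Amhr2 they mark, from left to right, an element for the nuclear receptor NR5A1 with the letters AAGGTCA, then one for GATA factors that reads TTATCA on this strand, and a GC box. A GC box reads GGGCGG, and the capitals in the window of Dhh mark 4 of them, the leftmost on the other strand. The windows are chr17:89200626-89200925 on the minus strand for Fshr, chr15:102445117-102445416 on the plus strand for Amhr2 and chr15:98898491-98898790 on the minus strand for Dhh.
Fshr: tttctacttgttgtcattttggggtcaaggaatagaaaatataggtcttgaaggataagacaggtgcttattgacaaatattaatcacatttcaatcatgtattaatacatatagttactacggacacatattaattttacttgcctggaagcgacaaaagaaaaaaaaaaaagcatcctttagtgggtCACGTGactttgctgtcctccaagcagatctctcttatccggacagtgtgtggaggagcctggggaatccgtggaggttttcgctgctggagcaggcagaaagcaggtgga
Amhr2: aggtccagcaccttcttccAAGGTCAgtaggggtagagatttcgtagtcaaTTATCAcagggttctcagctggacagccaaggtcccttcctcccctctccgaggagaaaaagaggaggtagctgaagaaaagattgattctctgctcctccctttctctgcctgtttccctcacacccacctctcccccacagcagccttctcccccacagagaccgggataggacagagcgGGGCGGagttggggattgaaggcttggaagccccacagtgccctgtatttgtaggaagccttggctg
Dhh: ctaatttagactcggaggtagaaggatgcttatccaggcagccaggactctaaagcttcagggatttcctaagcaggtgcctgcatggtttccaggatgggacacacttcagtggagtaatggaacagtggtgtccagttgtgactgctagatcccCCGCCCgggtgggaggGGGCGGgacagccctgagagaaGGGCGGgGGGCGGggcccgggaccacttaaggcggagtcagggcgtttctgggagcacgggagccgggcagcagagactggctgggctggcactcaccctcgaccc

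Both strands were searched, and positions give the first base of a motif with the start as 1 and no position 0. The E-box of Fshr began at -61, and 7.15% of the 32851 promoters of the table held this motif. In Amhr2, the NR5A1 element began at -231 (held by 4.72% of promoters), the GATA motif at -199 (searched as AGATAA or TGATAA and held by 18.6%) and the GC box at -17 (35.7%). Dhh held 4 GC boxes, at -94, -78, -56 and -49. Cldn11 and Inhbb held 1 GC box each, at 5 and -122. None of the 5 windows held the SOX letters AACAAT or ACAAAG (27.0% of promoters), the core letters TGACG of a CRE (20.8%) or the TATA letters TATAAA (13.6%). No motif overlapped another. These matches describe the letters and are not evidence of binding.

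Transcription factors of the Sertoli cell are described first. Sox9, which directs Sertoli cell differentiation, occupies chromosome 11 from 112782224 to 112787760, plus strand (GRCm38, as all gene positions here). Its normalized counts were 199, 243 and 180 in Prm2+/+, 159, 209 and 171 in Prm2+/-, and 226, 169 and 189 in Prm2-/-. The genotypes overlapped, with the highest library in Prm2+/+ and the lowest in Prm2+/-. The LFC (log2 fold change, computed after adding 1 to each normalized count) of Prm2-/- against Prm2+/+ was -0.09 with a 95% interval of -0.48 to 0.31.

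Wt1, a zinc finger factor needed to keep Sertoli cell identity, lies on chromosome 2 from 105126529 to 105173616. It had 22.8, 145 and 18.8 normalized counts in Prm2+/+, 25.7, 142 and 115 in Prm2+/-, and 28.1, 139 and 148 in Prm2-/-. The libraries fell at either 18.8 to 28.1 or 115 to 148, and each genotype held libraries of both levels. Low libraries were replicates 1 and 3 of Prm2+/+, replicate 1 of Prm2+/- and replicate 1 of Prm2-/-. The LFC of Prm2-/- against Prm2+/+ was 1.05, and its interval from -1.29 to 3.39 covers changes of either direction. Without replicate 2 of Prm2+/+ it was 1.96, and without replicate 3 of Prm2+/+ it was 0.52. Wt1os, an RNA transcribed from beside the start of Wt1 and not overlapping it in the annotation, was named after its values were seen. It had 26.3 to 46.5 normalized counts and did not share the levels of Wt1.

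Gata4, a GATA factor of Sertoli and other gonadal somatic cells, lies on chromosome 14 from 63198922 to 63271692 on the minus strand. It was listed at 0, 25.7 and 0 in Prm2+/+, at 33.6, 0 and 0 in Prm2+/-, and at 48.9, 38.6 and 28.5 in Prm2-/-. All 3 Prm2-/- libraries were above all 3 Prm2+/+ libraries, while replicate 1 of Prm2+/- was within the range of Prm2-/-. The LFC of Prm2-/- against Prm2+/+ was 3.70 (standard error 1.68, interval -0.19 to 7.58), with an unadjusted p of 0.0596 and an adjusted p of 0.700 in limma. Since 4 of the 9 libraries were listed at 0, the size of this LFC depends on the pseudocount, and it was 2.23 with a pseudocount of 5. It was 5.28 without replicate 2 of Prm2+/+, the only library of that genotype not listed at 0. The adjusted p of that fit was 0.451 in limma, the smallest of any gene of the group under any alternative. Without replicate 3 of Prm2+/+, the LFC was 2.91 (adjusted p = 0.719 in limma).

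Receptors came next. Fshr, the receptor for follicle-stimulating hormone, lies on chromosome 17 from 88984952 to 89200675 on the minus strand and was listed at 0 in all 9 libraries. It is a defining Sertoli cell marker, and its lack of counts here limits the check of the cell type to the other genes. An entry listed at 0 can be a failed estimate, so these values do not show that Fshr was not expressed. Amhr2, the type II receptor for anti-Müllerian hormone, lies on chromosome 15 from 102445367 to 102454633. Its normalized counts were 9.50, 6.43 and 692 in Prm2+/+, 10.9, 12.8 and 7.95 in Prm2+/-, and 539, 544 and 11.6 in Prm2-/-. It was thus high in replicate 3 of Prm2+/+ and replicates 1 and 2 of Prm2-/- and low in the other 6 libraries, with no value between 12.8 and 539. The LFC of Prm2-/- against Prm2+/+ was 2.03 (interval -2.52 to 6.59, adjusted p = 0.793 in limma). Without replicate 3 of Prm2+/+ it was 4.13 with an unadjusted p of 0.0325 and an adjusted p of 0.552 in limma. Against Prm2+/-, whose libraries were all low, the LFC of Prm2-/- was 3.77 (unadjusted p = 0.0929, adjusted p = 0.963 in limma).

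Hormones and ligands followed. Inhbb encodes the inhibin and activin beta B subunit and lies on chromosome 1 from 119415465 to 119422248 on the minus strand. It had 43.7, 33.2 and 39.8 normalized counts in Prm2+/+, 44.5, 32.9 and 35.3 in Prm2+/-, and 39.8, 29.4 and 32.7 in Prm2-/-. The 3 genotypes overlapped throughout. The LFC of Prm2-/- against Prm2+/+ was -0.19 with an interval of -0.63 to 0.25.

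Dhh, desert hedgehog, signals from Sertoli cells to Leydig and peritubular cells and lies on chromosome 15 from 98891152 to 98898540 on the minus strand. Its normalized counts were 66.5, 69.7 and 70.7 in Prm2+/+, 63.3, 46.6 and 43.3 in Prm2+/-, and 59.8, 63.9 and 23.2 in Prm2-/-. The Prm2+/+ libraries lay within 66.5 to 70.7 and above each of the other 6, of which replicate 3 of Prm2-/- was lowest. The LFC of Prm2-/- against Prm2+/+ was -0.61 (standard error 0.36, interval -1.45 to 0.22, adjusted p = 0.739 in limma). Without replicate 3 of Prm2-/- it was -0.16, and leaving out either other Prm2-/- library gave -0.82 or -0.87. The LFC of Prm2+/- was -0.45 (interval -1.28 to 0.39, adjusted p = 0.842 in limma).

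In the annotation, Dhh was the one gene of the group that overlapped others, namely Rhebl1 on the same strand and Gm49442, an antisense gene that is not analysed here. Reads in the shared stretch could have been counted to either gene. Rhebl1, which encodes a small GTPase, had 25.7 to 47.5 normalized counts in Prm2+/+, 23.7 to 25.6 in Prm2+/- and 22.2 to 26.3 in Prm2-/-. Its LFC of Prm2-/- against Prm2+/+ was -0.56 (unadjusted p = 0.0419, adjusted p = 0.666 in limma).

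Barrier and secreted products closed the group. Cldn11, the claudin of the Sertoli cell tight junction, lies on chromosome 3 from 31149920 to 31164324. Its normalized counts were 272, 315 and 299 in Prm2+/+, 283, 315 and 288 in Prm2+/-, and 311, 308 and 289 in Prm2-/-. It was the most even gene of the group, and its interval for Prm2-/- against Prm2+/+ ran from -0.18 to 0.26 around an LFC of 0.04. Changes past the LFC threshold of 0.5 lie outside this interval.

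Clu encodes clusterin, a secreted chaperone that is abundant in Sertoli cells, and lies on chromosome 14 from 65968483 to 65981547. It had 1734, 1846 and 2534 normalized counts in Prm2+/+, 1848, 1649 and 1679 in Prm2+/-, and 2183, 1920 and 2012 in Prm2-/-. All Prm2-/- libraries were above all Prm2+/- libraries, and replicate 3 of Prm2+/+ was above both groups. The LFC of Prm2-/- was 0.24 against Prm2+/- (interval -0.08 to 0.57, unadjusted p = 0.126, adjusted p = 0.963 in limma) and 0.02 against Prm2+/+. Without replicate 3 of Prm2+/+, the latter was 0.19 (adjusted p = 0.594 in limma).

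**Figure D1:**
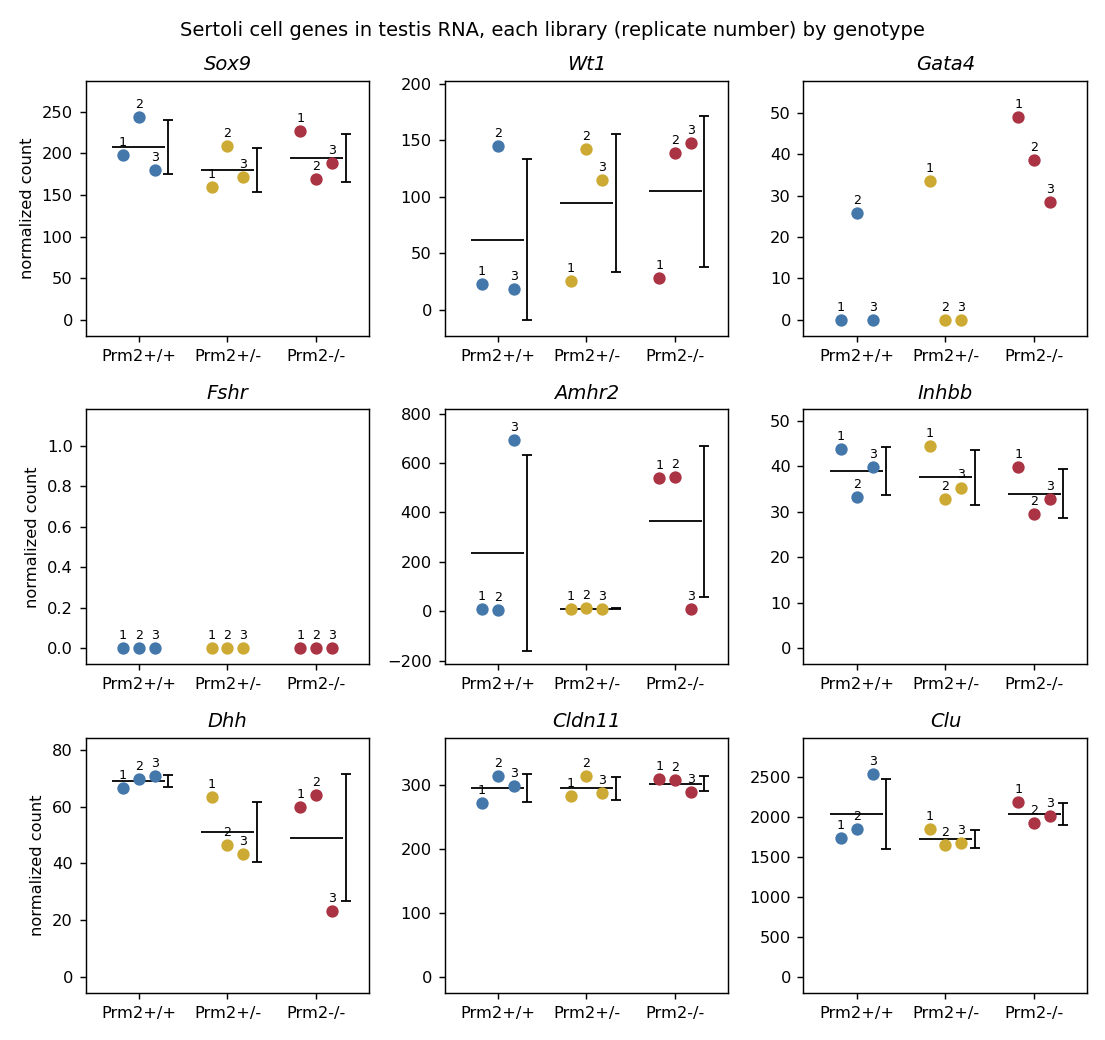
Normalized counts (vertical axes, linear) of the 9 Sertoli cell genes in each library by genotype (horizontal axes). Points are libraries with their replicate number, horizontal lines are means and bars to the right are SD over 3 libraries, left out for genes listed at 0 in any library. Wt1 falls at separate levels within every genotype, Gata4 within Prm2+/+ and Prm2+/-, and Amhr2 within Prm2+/+ and Prm2-/-. Cldn11 stays between 272 and 315, and Fshr is at 0 throughout.

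The comparison of Prm2-/- with Prm2+/+ asks how the Sertoli cell transcripts stand in testes that lack protamine 2. None (0) of the 8 tested genes passed the thresholds of the study (adjusted p under 0.05, LFC beyond 0.5) in limma, against 0.181% of all tested genes called. An unadjusted p under 0.05 was found for 0 of the 8 and for 7.33% of all tested genes. Neither edgeR nor DESeq2 called one (0), and 0 had an unadjusted p under 0.05 in either. Of the 8 genes, 5 had a positive LFC, and the median LFC was 0.03 (0.12 without replicate 3 of Prm2+/+), beside 0.02 over all tested genes. The genotypes did not overlap in 2 genes, Gata4 and Dhh, where 14.0% of all tested genes did not overlap.

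Prm2+/- was compared with Prm2+/+ in the same fit. Again 0 of 8 genes were called in limma, edgeR or DESeq2, 0 had an unadjusted p under 0.05 in any of these tools, and in limma 0.0806% of all tested genes were called and 4.24% had an unadjusted p under 0.05. The median LFC was -0.13 (-0.04 without replicate 3 of Prm2+/+), beside 0.01 over all tested genes, and 3 genes had a positive LFC. The values were -0.20 for Sox9, 0.90 for Wt1, 0.12 for Gata4, -1.73 for Amhr2, -0.05 for Inhbb, -0.45 for Dhh, 0.00 for Cldn11 and -0.22 for Clu. Only Dhh did not overlap between these genotypes (1 gene, against 9.44% of all tested genes). For Amhr2 the value rests on replicate 3 of Prm2+/+, without which it was 0.36. Without that library, the LFC was -0.05 for Clu, 0.37 for Wt1 and -0.67 for Gata4. It was then -0.30 for Sox9, -0.03 for Inhbb, -0.43 for Dhh and 0.01 for Cldn11.

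Between Prm2-/- and Prm2+/-, 0 of 8 genes were called in limma, against 0.175% of all tested genes, and 0 had an unadjusted p under 0.05, against 5.44%. EdgeR and DESeq2 also called 0, and the unadjusted p was under 0.05 for 1 gene in edgeR (Amhr2, 0.0358, adjusted p = 0.908) and for 0 in DESeq2. The median LFC was 0.13, beside -0.01 over all tested genes, and 6 genes had a positive LFC. The LFC was 3.57 for Gata4 (unadjusted p = 0.0669, adjusted p = 0.945 in limma), 0.15 for Wt1, 0.11 for Sox9, -0.17 for Dhh, -0.14 for Inhbb and 0.04 for Cldn11. Clu was the 1 gene whose libraries did not overlap, against 14.7% of all tested genes. Each of the 3 comparisons shares its libraries with the others, so that their values are not independent.

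**Figure D2:**
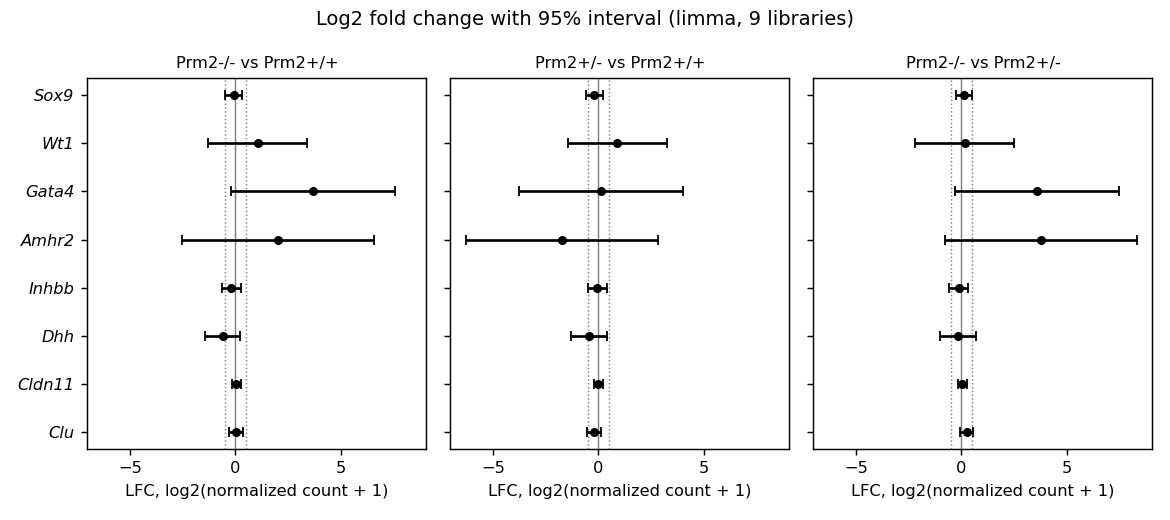
LFC (horizontal axes, log2 of normalized count plus 1) with 95% intervals for the 8 tested Sertoli cell genes in the 3 comparisons, from limma on 9 libraries. Solid grey lines mark 0 and dotted lines mark the threshold of 0.5 in either direction. Every interval includes 0, and those of Gata4, Wt1 and Amhr2 are widest.

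The precision behind these values differed among the genes. Cldn11 and Inhbb varied within genotypes about as much as counting error alone at the scale of the recovered counts, with coefficients of variation of 5.88% against 5.74% for Cldn11 and 15.2% against 16.3% for Inhbb. Sox9 (15.1% against 7.11%), Dhh (25.5% against 13.2%) and Clu (13.9% against 2.26%) varied more than their counts required. Wt1 reached 76.4% against 10.6%, Gata4 78.5% against 22.5% and Amhr2 142% against 7.04%. By the SD of log2 values within genotypes, Amhr2 was at the 99.5 percentile of all tested genes, Gata4 at 98.6 and Wt1 at 91.0, and Cldn11 at 2.67. For Wt1, Gata4, Amhr2 and also Clu, the spread between libraries was at least 3 times the counting error on that scale.

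**Figure D3:**
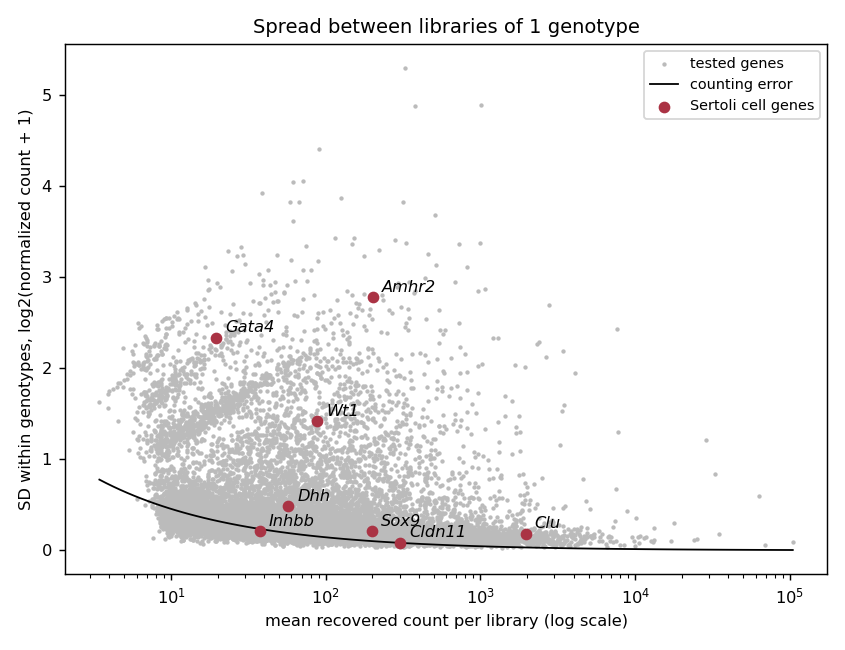
SD within genotypes of log2 of the normalized count plus 1 (vertical axis) against the mean recovered count per library (horizontal axis, log scale). Grey points are the 14893 tested genes, red points the 8 Sertoli cell genes, and the line is counting error alone. Cldn11 and Inhbb lie on the line, whereas Amhr2, Gata4 and Wt1 lie far above it.

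Wt1, Gata4 and Amhr2 were then examined as genes at separate levels. By a definition set after the values were seen, a gene stood at separate levels when its ordered libraries had a step of at least 3-fold in the value plus 1, with at least 2 libraries on either side. This held for 3 of the 8 genes (37.5%), for 7 of the 64 other tested genes of the Sertoli cell programme (10.9%) and for 1172 of all 14893 tested genes (7.87%). Because the definition was set with the values of Wt1, Gata4 and Amhr2 known, the share of the group cannot be weighed against the others. The table names some loci by a label of the transcript assembly and others by a reference identifier, and the shares were close in both, 7.91% and 6.98%. Of the 9 genes, 8 had an assembly label and Fshr had a reference identifier. In the annotation Wt1 has 9 transcripts, Gata4 has 6 and Amhr2 has 5, while Clu has 9, Dhh has 2 and the other genes have 1 each. The part of transcript choice or locus assembly in the levels was not tested.

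The 3 genes did not share their high libraries. No other tested gene stood at separate levels with the high libraries of Amhr2, but 2 tested genes had the opposite libraries, high where Amhr2 was low. For Gata4 and Wt1, 0 genes had the opposite libraries. Gata4 was high in replicate 2 of Prm2+/+, replicate 1 of Prm2+/- and all Prm2-/- libraries, and Wt1 in 5 libraries of all genotypes. The high and low libraries of Gata4 were also those of 7 further genes, among them Kdm4a (2.21 to 8.84 in the low and 91.3 to 136 in the high libraries) and Ppm1j (20.9 to 57.5 and 243 to 351). Those of Wt1 were shared by 5 further genes, among them Emx2, a homeobox factor of the developing gonad, at 5.70 to 9.96 and 39.8 to 56.8. Jhy (25.4 to 46.5 and 209 to 261) showed the same libraries. Kdm4a, Ppm1j, Emx2 and Jhy were named after their values were seen. For the 7 other programme genes at separate levels, 1 to 29 tested genes shared the high and low libraries, the gene itself included. A relation between Wt1 and Emx2 was not tested.

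The 5 tested genes most like the mean of the group were found by Pearson correlation over the 9 libraries, after scaling each gene. They were Cercam (r = 0.94), Sost (r = 0.93), Rufy2 (r = 0.93), Vps11 (r = 0.92) and Hmgxb3 (r = 0.92), which share the libraries and their depth with the group. Picked as the highest r among all tested genes outside the group over only 9 libraries, they are not evidence of shared expression. The mean itself was related unevenly to its genes, with r from -0.15 for Wt1 to 0.72 for Cldn11, so no single pattern runs through the 9 genes. Hmgxb3 was listed at 0 in 5 libraries and had 60.8 to 82.5 normalized counts in replicates 2 and 3 of Prm2+/+ and replicates 1 and 2 of Prm2-/-.

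Other genes of the Sertoli cell programme were taken from 7 lists, which hold 79 genes besides the 9. Of these, 77 were in the table and 64 were tested, and 0 were called in any of the 3 comparisons in limma. With an unadjusted p under 0.05 in limma, 2 were higher and 2 lower in Prm2-/- than in Prm2+/+, 3 were higher and 1 lower in Prm2+/- than in Prm2+/+, and 2 were higher and 2 lower in Prm2-/- than in Prm2+/-. Over all tested genes, 7.33%, 4.24% and 5.44% had such a p, and 4 of 64 is near these shares. In edgeR 0 were called, with 3, 4 and 5 genes at an unadjusted p under 0.05 in the same order. DESeq2 called 0, 0 and 1, with 4, 4 and 5 genes at an unadjusted p under 0.05. The median LFC over the 64 genes was 0.11, 0.03 and 0.05, and the first of these was 0.03 without replicate 3 of Prm2+/+. Medians of single lists below include the tested genes of the group that the list holds.

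Among the 14 transcription factors, which include Sox9, Wt1 and Gata4, the median LFC of Prm2-/- against Prm2+/+ was 0.06, and 0.00 without replicate 3 of Prm2+/+. Dmrt1, which maintains male fate in the postnatal testis, had 80.1 to 104 normalized counts over all libraries and an LFC of 0.11 (interval -0.19 to 0.40). Gata1 had 24.6 to 34.3 in Prm2+/+ and 32.5 to 50.7 in Prm2-/-, with an LFC of 0.40 (adjusted p = 0.743 in limma). Sox8, a relative of Sox9, was listed at 0 in replicate 3 of Prm2+/- and replicate 2 of Prm2-/- and at 11.05 to 30.01 elsewhere. Nr5a1, the nuclear receptor that drives steroidogenic genes, was listed at 0 in replicate 2 of Prm2+/- and at 23.0 to 44.2 in the other libraries.

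Follicle-stimulating hormone, inhibin and activin signalling was represented by 13 tested genes, with a median LFC of 0.10 between Prm2-/- and Prm2+/+ that was -0.02 without replicate 3 of Prm2+/+. Inha, the inhibin alpha subunit, had 134, 99.7 and 145 normalized counts in Prm2+/+, 121, 103 and 113 in Prm2+/-, and 140, 136 and 140 in Prm2-/-. Its LFC was 0.16 (interval -0.20 to 0.51), and all Prm2-/- libraries were above all Prm2+/- libraries. Inhba, the beta A subunit, and Fst, the activin antagonist follistatin, did not reach 5 normalized counts in any library and were not tested. Prkar1a, a regulatory subunit of protein kinase A, was named after its values were seen, and it had 24.3 to 50.4 in 3 libraries and 807 to 1205 in the other 6.

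Amh, the ligand of the Amhr2 receptor, is a hormone of fetal and immature Sertoli cells and was listed at 0 in all 9 libraries. The 5 tested genes of this pathway, which include Amhr2, had a median LFC of 0.89 between Prm2-/- and Prm2+/+, and 0 had an unadjusted p under 0.05 in limma. This median rests on replicate 3 of Prm2+/+, without which it was 0.20. The gene at the median was Smad5, a signal mediator named after its values were seen, with 108, 159 and 25.4 normalized counts in Prm2+/+ and 102 to 168 in Prm2-/-. Acvr1, a type I receptor of this family that was named after its values were seen, was listed at 0 in replicate 3 of Prm2+/+ and replicate 1 of Prm2+/- and at 11.9 to 37.0 elsewhere.

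For hedgehog signalling, 8 of 14 genes were tested, with a median LFC of 0.04 between Prm2-/- and Prm2+/+ that was -0.09 without replicate 3 of Prm2+/+. Ptch1, the receptor and a transcriptional target of the pathway, had 19.9 to 32.3 normalized counts in Prm2+/+, 27.4 to 33.8 in Prm2+/- and 20.3 to 39.8 in Prm2-/-, with an LFC of 0.29 (interval -0.37 to 0.95). Gli1, the other common target, was at 0 in 6 libraries and at most 9.64, and was not tested.

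In the blood-testis barrier list, 14 of 15 genes were tested, with a median LFC of 0.22 between Prm2-/- and Prm2+/+ that was 0.06 without replicate 3 of Prm2+/+. Tjp1, the scaffold protein ZO-1, had 68.4, 94.3 and 45.3 normalized counts in Prm2+/+ and 111, 92.3 and 111 in Prm2-/-. Its LFC was 0.65 (unadjusted p = 0.0428, adjusted p = 0.666 in limma), and 0.38 without replicate 3 of Prm2+/+. F11r, the junctional adhesion molecule JAM-A, was named after its values were seen. It had 156, 150 and 193 normalized counts in Prm2+/+, 119, 135 and 124 in Prm2+/-, and 108, 121 and 112 in Prm2-/-, so that Prm2+/+ was above all other libraries. Its LFC was -0.54 in Prm2-/- (unadjusted p = 0.00311, adjusted p = 0.392 in limma) and -0.39 in Prm2+/- (unadjusted p = 0.0161, adjusted p = 0.842 in limma), both against Prm2+/+. Without replicate 3 of Prm2+/+, the LFC of F11r was -0.43 in Prm2-/- and -0.28 in Prm2+/-. Gja1, the gap junction protein connexin 43, had 34.2 to 51.9 in Prm2+/+, 28.7, 113 and 29.2 in Prm2+/-, and 36.2, 104 and 112 in Prm2-/-. Ocln, occludin, was too low for a test, at 6.63 to 7.60 in Prm2+/+, 6.92 to 8.84 in Prm2+/- and 0 to 3.62 in Prm2-/-. Espn, an actin-bundling protein of the Sertoli cell ectoplasmic specialization, had an LFC of 0.46 (interval -0.44 to 1.35).

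Of the 15 secreted and nurse-cell products, 12 were tested, with a median LFC of 0.02 between Prm2-/- and Prm2+/+ that was 0.08 without replicate 3 of Prm2+/+. Shbg, which encodes the androgen-binding protein, was listed at 0 in all Prm2+/+ libraries, at 0, 7.31 and 0 in Prm2+/-, and at 31.7, 22.3 and 17.95 in Prm2-/-. It had the smallest adjusted p of the programme for Prm2-/- against Prm2+/+ (0.249 in limma, unadjusted p = 0.000969), and it was called when only the 6 libraries compared were fitted (adjusted p = 0.0391 in limma). Shbg had enough counts for a test only in Prm2-/-, so these p-values and this call are not support for a difference. Kitl, the KIT ligand for spermatogonia, had 38.7 to 49.3 in Prm2+/+, 60.3 to 70.7 in Prm2+/- and 52.8 to 61.2 in Prm2-/-. Its LFC was 0.48 in Prm2+/- (unadjusted p = 0.0118, adjusted p = 0.842 in limma) and 0.33 in Prm2-/- (adjusted p = 0.700 in limma), both against Prm2+/+. Without replicate 3 of Prm2+/+, the LFC of Kitl was 0.37 in Prm2+/- and 0.22 in Prm2-/-. Fgf2, a growth factor named after its values were seen, had 46.1 to 54.1 in Prm2+/+, 49.4 to 52.1 in Prm2+/-, and 38.0, 16.2 and 13.7 in Prm2-/-. Its LFC in Prm2-/- was -1.27 against Prm2+/+ (unadjusted p = 0.00545, adjusted p = 0.466 in limma) and -1.26 against Prm2+/- (unadjusted p = 0.00571, adjusted p = 0.691 in limma). Without replicate 1 of Prm2-/-, which lay nearest the other genotypes, Fgf2 was called in both (adjusted p = 0.0188 and 0.0174 in limma). Gdnf, the niche factor for spermatogonial stem cells, had 5.07 to 9.50 and was not tested, and Trf is not analysed here.

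Rhox5, an androgen target of Sertoli cells, had 153 to 214 normalized counts over all libraries and an LFC of 0.01. Rhox8, another Sertoli homeobox gene, had 180 to 214 in Prm2+/+, 161 to 227 in Prm2+/- and 228 to 245 in Prm2-/-. Its LFC was 0.25 against Prm2+/+ and 0.33 against Prm2+/- (unadjusted p = 0.0479, adjusted p = 0.914 in limma).

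**Figure D4:**
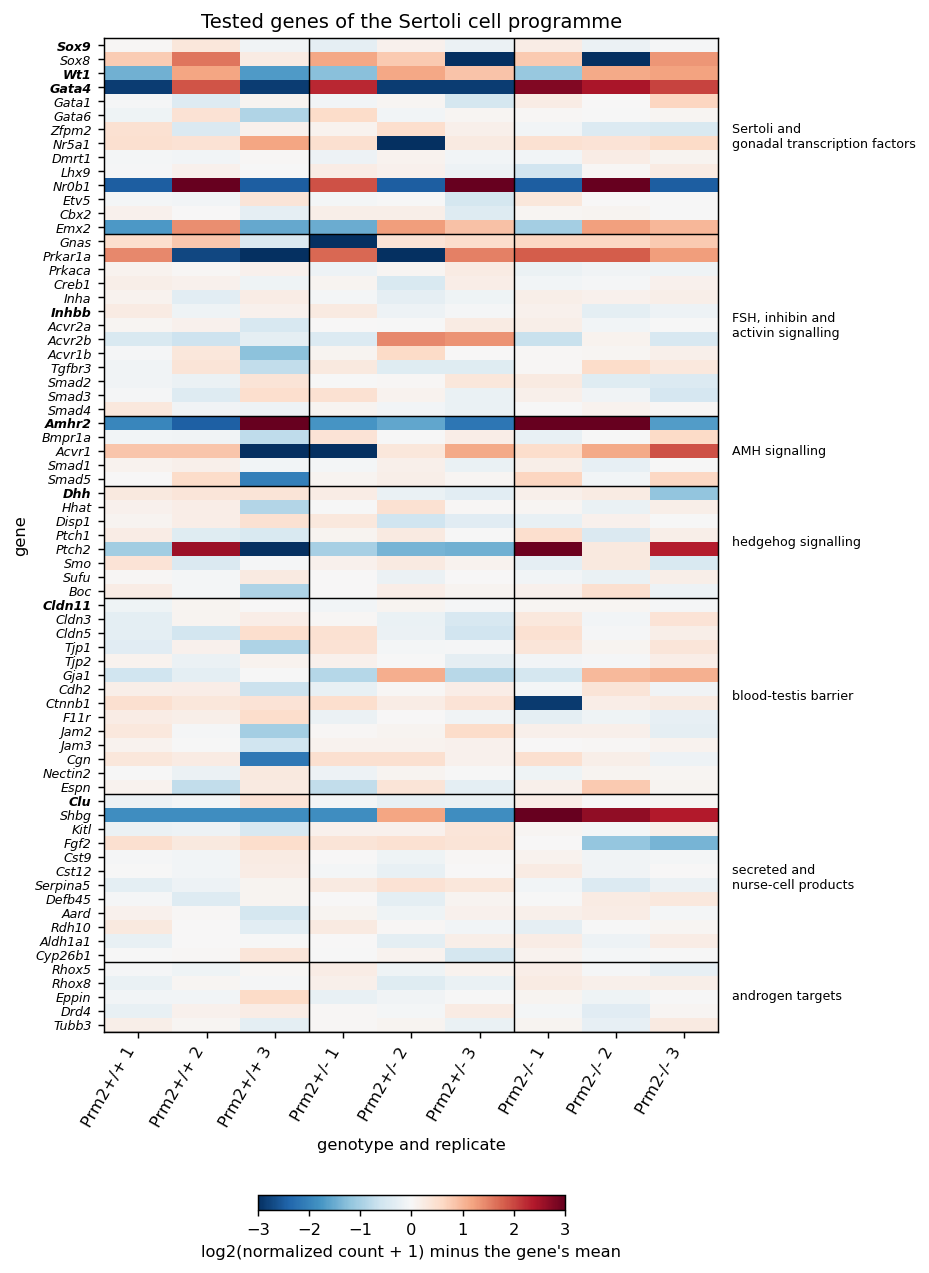
Tested genes of the Sertoli cell programme (rows, the 8 genes of the group in bold) in the 9 libraries (columns, by genotype and replicate). Colour gives log2 of the normalized count plus 1 minus the mean of the gene, drawn between -3 and 3, and lines separate lists and genotypes. Most rows are pale in all libraries, and Wt1 and Emx2 share their red (higher) and blue (lower) libraries.

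Markers of other testis cells were read beside these values, and 0 of them were called in limma in any comparison. The summed level of 6 Leydig cell markers was 1711 to 2007 in Prm2+/+, 1933 to 2371 in Prm2+/- and 1923 to 2198 in Prm2-/-. The 5 peritubular myoid cell markers summed to 293 to 358, 280 to 308 and 240 to 298 in the same order. Of the 4 of them tested, 2 had an unadjusted p under 0.05 with all Prm2-/- libraries below all Prm2+/+ libraries, and they were named after their values were seen. Over all tested genes, 7.33% had such a p in limma and 14.0% did not overlap between these genotypes in either direction. Acta2, smooth muscle actin, had an LFC of -0.27 (unadjusted p = 0.0212, adjusted p = 0.604 in limma) and Cnn1, calponin, one of -0.76 (unadjusted p = 0.00962, adjusted p = 0.522 in limma). Of the 4, 1 had a positive LFC, Des, which was named after its values were seen. Its LFC was 2.71 (interval -0.16 to 5.58, unadjusted p = 0.0608, adjusted p = 0.701 in limma). Des was listed at 0 in replicates 2 and 3 of Prm2+/+, at 33.3 in replicate 1, and at 13.6 to 27.4 in Prm2-/-. Dhh was below Prm2+/+ in each Prm2-/- and each Prm2+/- library, and a link between these genes was not tested. Round spermatid markers summed to 4079 to 4495, 4030 to 4450 and 4331 to 4553, spermatocyte markers to 5054 to 6269, 5537 to 5992 and 5477 to 5639, and spermatogonia markers to 2677 to 3434, 2414 to 2980 and 2430 to 2790. Elongating spermatid markers summed to 199115 to 214225, 195058 to 207992 and 191959 to 200995. Macrophage (156 to 214, 156 to 204 and 192 to 235), endothelial (51.4 to 66.3, 53.9 to 67.2 and 42.6 to 70.6) and blood cell markers (676 to 1188, 911 to 1123 and 804 to 1264) overlapped between genotypes as well. Of the 5 epididymis and rete markers, Lcn5, Lcn8 and Pax8 were at 0 in all libraries, and the 5 summed to at most 9.50. The part of these cell types in the values of the Sertoli cell genes was not tested.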

How the data were processed

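QuantSeq libraries of 9 testes were sequenced by the authors. Per the labels and the methods of the study, reads were trimmed with Trim Galore (version 0.4.5), mapped to GRCm38 with HISAT2 (version 2.1) and quantified with StringTie (version 1.3.3), and gene-level counts were normalized with DESeq2. The file deposited by the authors holds a signal (counts divided by size factors), and 0 of its columns lacked a sample. All values (100%, tolerance 0.01 counts) were whole multiples of 1 step per library, so counts were recovered. For replicate 1 of Prm2+/- the step lies near 1, a weaker sign. The strand setting of the counting is not given in the sources used here. The counting estimates reads from coverage, so that an entry listed at 0 can be a failed estimate.

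Limma 3.58.1 (lmFit, eBayes with trend; R 4.3.3) was fitted to log2 of the normalized count plus 1 for the 14893 genes kept by filterByExpr, with all 9 libraries and genotype as the only term. A gene was called at an adjusted p (Benjamini-Hochberg) below 0.05 with an LFC past 0.5. EdgeR 4.0.16 and DESeq2 1.42.0 were run on the recovered counts as alternatives, beside other scaling, pseudocounts, filters, sample sets, a replicate block and leaving out each library. Scripts were tested on simulated data. Positions came from GENCODE M21 (38520 of 38685 entries matched), and promoters from RefSeq.

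The members and lists were chosen with earlier results of these data known. Named were the 9 genes, Prm2, listed genes called in any comparison, a set of hormones, receptors, factors and barrier genes, genes overlapping a member, and the 5 genes most like the mean of the group. Genes named after their values were seen are marked as such, and 1 listed gene is not reported here.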

Additional observations from a re-analysis of the deposited data

How the results depend on the processing

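None (0) of the 8 tested Sertoli cell genes was called in any comparison under any alternative. Of their 24 LFC values, 15 kept their sign in all alternatives and 9 turned in some fit without 1 library, and 0 turned under the other settings. With each library left out in turn, the LFC of Prm2-/- against Prm2+/+ ranged from -0.200 to 0.0333 for Sox9, from -0.0212 to 0.0851 for Cldn11 and from -0.0876 to 0.186 for Clu. Against the same genotype, that of Prm2+/- ranged from -1.58 to 1.70 for Gata4, -0.0581 to 0.0481 for Cldn11, -0.18 to 0.0359 for Inhbb and -2.91 to 0.36 for Amhr2. Between Prm2-/- and Prm2+/-, Wt1 ranged from -0.61 to 0.92 and Dhh from -0.42 to 0.29. Of the other programme genes, Shbg was called (1 gene) for Prm2-/- against Prm2+/+ with only the 6 libraries compared, Serpina5 (1) in DESeq2 for Prm2-/- against Prm2+/- (adjusted p = 0.0404), and Fgf2 (1, lower) for Prm2-/- against either genotype without replicate 1 of Prm2-/- (adjusted p = 0.0188 and 0.0174 in limma). With each library left out, the calls were thus between 0 and 1. Shbg had enough counts for a test only in Prm2-/-, so its call is not support for a difference. Serpina5 and Fgf2 were named after their values were seen. Serpina5 had 246 to 319 normalized counts in Prm2+/+, 366 to 413 in Prm2+/- and 227 to 287 in Prm2-/-. It thus stood highest in Prm2+/-, and its LFC in DESeq2 was -0.57 for Prm2-/- against Prm2+/-. In limma its LFC against Prm2+/+ was -0.10 in Prm2-/- (unadjusted p = 0.482) and 0.48 in Prm2+/- (unadjusted p = 0.00694, adjusted p = 0.842). Among all genes, the calls for Prm2-/- against Prm2+/+, Prm2+/- against Prm2+/+ and Prm2-/- against Prm2+/- were 27, 12 and 26 in the fit reported, 140, 66 and 113 in DESeq2 and 53, 12 and 52 with only the libraries compared. With any count above 0 they were 39, 21 and 38, and without 1 library they were 28 to 62, 9 to 43 and 23 to 49. The cause was not tested. The labels share replicate numbers, and the replicate block gave 15, 6 and 14 calls. Deviations from the genotype means correlated at -0.0365 to 0.0423 for same-numbered libraries (9 pairs) and at -0.0376 to 0.0456 for others (18 pairs). Over all tested genes, no pairing by number was thus seen. These correlations cannot tell whether same-numbered males were related or processed together. With 3 libraries a genotype and the spread between libraries of Wt1, Gata4 and Amhr2, only large changes of these genes could pass the test.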
